A study of Mus musculus with 14 samples.

Results

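Astrocytes are the glial cells that take up transmitter, buffer potassium and water, and couple to one another and to the vasculature in the spinal cord. The genes described here are 9 classical markers of this cell type, chosen by symbol: *Gfap*, *Aqp4*, *Slc1a2*, *Slc1a3*, *S100b*, *Gja1*, *Gjb6*, *Aldoc* and *Glul*. All 9 were found among the 19215 genes of the spinal cord RNA-seq tables. Only *Aldoc* had alternative cassette exons in the deposited splicing tables, 3 of 13189 in all, and the other 8 genes had none listed.

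The study mapped the binding of NOVA, a neuronal RNA-binding protein of the KH type that recognises 4 tetranucleotides (TCAT with its variant TCAC, as well as CCAT with its variant CCAC), by HITS-CLIP, in which RNA crosslinked to the protein is precipitated with it and sequenced. Motoneuron (MN) libraries came from 2 BAC-transgenic mouse lines in the C57BL/6 background, Chat:GFP-Nova #6 hemizygous (line 6) and Chat:GFP-Nova #17 hemizygous (line 17), at 3 months of age, with 4 libraries a line, each from pooled spinal cords and precipitated with antibodies to GFP. Whole spinal cord (WSC) CLIP came from 4 wild-type C57BL/6 libraries of the same age, precipitated with an anti-NOVA serum. WSC RNA-seq came from 1 male and 1 female 12-week-old B6/SJL mouse carrying Tg(SOD1)2Gur/J, a human wild-type SOD1 transgene that the CLIP mice lack. In the MN libraries only the tagged long NOVA2 isoform, driven by the *Chat* promoter, was precipitated, whereas the WSC libraries report endogenous NOVA1 and NOVA2, so cell type, antibody and protein cannot be told apart in the MN-WSC comparison.

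The MN libraries held 65961 to 871804 unique CLIP reads and the WSC libraries 2213104 to 6095995. Of the reads placed in 1 gene, 35.6% to 48.0% were exonic in the MN libraries and 61.5% to 66.7% in the WSC libraries, and the 2 ranges did not overlap. The RNA-seq libraries held 72006019 (male) and 65625173 (female) reads on genes. MN markers checked the labels: *Chat*, which makes acetylcholine, had a log2 fold change of 3.08 (SE 0.13) in MN CLIP over WSC CLIP, with an edgeR FDR of 1.92e-16. *Slc6a5*, the glycine transporter of inhibitory neurons, had -4.28 (SE 0.16, edgeR FDR = 3.01e-17).

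All 9 astrocyte markers were well expressed in WSC RNA. In this tissue, fewer astrocytes and less RNA per astrocyte cannot be told apart. *Aldoc*, the glycolytic aldolase C of astrocytes, was the highest, at 916 RPKM in the male and 939 RPKM in the female library (928 ± 16.2, SD, n = 2), and it ranked 14 among all genes. Levels are given as RPKM, reads per kilobase of exon scaled to library depth, so levels of different genes are compared here per length. *S100b*, a calcium-binding protein that some oligodendrocytes also make, had 477 and 613 RPKM, and *Gfap*, the astrocytic intermediate filament, 477 and 523 RPKM. *Glul*, glutamine synthetase, had 458 and 494 RPKM. The ranges of *S100b* and *Gfap* overlapped, and so did those of *Gfap* and *Glul*, so these 3 genes have no order among themselves beyond their spread.

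The glutamate transporter *Slc1a2* (GLT-1), which clears synaptic glutamate, had 190 RPKM in the male and 165 RPKM in the female library. *Aqp4*, the water channel of astrocytic endfeet, had 140 and 148 RPKM. *Gja1* (connexin 43), the main astrocytic gap junction protein, had 136 and 115 RPKM. Each of these levels lay apart from its neighbours in both libraries, and so did the next 2. *Gjb6* (connexin 30) had 33.8 and 34.5 RPKM and *Slc1a3* (GLAST), the second astrocytic glutamate transporter, 20.9 and 18.0 RPKM. The level of *Slc1a2* was therefore 177 ± 17.9 RPKM against 19.5 ± 2.06 RPKM for *Slc1a3* (SD, n = 2). For *Slc1a2*, the deposited exon length was 3027 nt, while the exons of GENCODE vM1 cover 13153 nt, so its RPKM depends on the gene model more than that of the other 8.

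**Figure D1:**
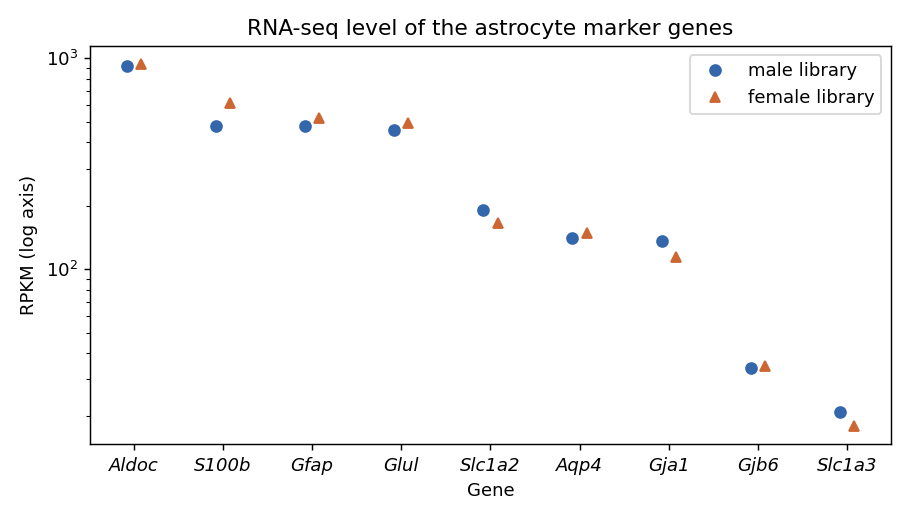
RPKM of the 9 astrocyte marker genes (log axis) in the male library (circles) and the female library (triangles), ordered by their mean. *Aldoc* lies highest at 928 RPKM and *Slc1a3* lowest at 19.5 RPKM, and the points of *S100b*, *Gfap* and *Glul* fall in the same range.

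Between the 2 RNA-seq libraries the markers differed little. Only *S100b* differed by 25% or more, at 1.29-fold higher in the female library, against 6.16% of the 11940 genes of at least 1 RPKM in that direction. None of the 9 did so in the male direction, where the share of all genes was 8.86%. The largest difference toward the male library was that of *Gja1*, a log2 ratio of male to female of 0.25 on the log2(RPKM + 0.1) scale, followed by *Slc1a3* at 0.22 and *Slc1a2* at 0.21. Markers of endothelial cells moved between these libraries too, with 5 of 7 higher in the male library by 25% or more (summed level 31.0 against 24.0 RPKM), and their part in the differences was not tested. With 1 library of each sex, these ratios describe 2 libraries and not the sexes, and no test was made.

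Other genes of the same pathways gave a frame for these levels. All 25 of the other astrocyte genes listed had at least 1 RPKM, with a median of 97.9 RPKM against 177 RPKM for the 9 markers and 10.3 RPKM for all genes of at least 1 RPKM. Among the highest were *Sparcl1*, a secreted matrix protein, at 1686 ± 76.4 RPKM, and *Apoe*, the lipid carrier, at 879 ± 88.9 RPKM (SD, n = 2). *Kcnj10*, the inward rectifier that carries potassium into astrocytes, had 224 RPKM in the male and 300 RPKM in the female library. *Vim*, the filament that pairs with *Gfap*, had 27.3 and 55.5 RPKM, the lower level in the male library.

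Paralogs of the markers lay both near and far from them. *Aldoa*, the aldolase of most tissues, had 847 ± 23.2 RPKM (SD, n = 2), close to *Aldoc*. The neuronal glutamate transporter *Slc1a1* had 19.2 ± 2.02 RPKM, within the spread of *Slc1a3*. Of the connexins, *Gja1* stood above *Gjb1* (55.0 RPKM), of oligodendrocytes, and *Gjb2*, the other astrocytic connexin, had 2.57 RPKM. In the S100 family, *S100a1* followed *S100b* at 136 RPKM.

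The first and the third cassette exon of *Aldoc* were included in nearly every transcript of both libraries. The first, 161 nt long and on the plus strand of chromosome 11 (mm9), had 3794 and 3260 reads on its inclusion junctions and 1 on the skipping junction in the male library, and 4016, 3203 and 0 in the female library. Its inclusion rate, in which the 2 inclusion junctions were averaged before being set against skipping, was 99.97% (Wilson 95% interval, 99.84% to 99.995%) and 100% (99.89% to 100%). The second is the same exon with a 5' splice site placed 2 nt further on, and its own downstream junction had 0 reads in both libraries, so its inclusion reads are those it shares with the first. The 3260 and 3203 downstream junction reads all lay on the first site.

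The third exon, of 200 nt at chr11:78139437-78139636, had 0 skipping reads beside 8871 and 8489 junction reads, which allows skipping of up to 0.0676% and 0.0707% (3 counts). None of the 3 passed the test between the libraries (Fisher's exact test, two-sided, FDR = 1 for each), against 4.26% of 9396 covered exons called at FDR 0.1. Over all covered exons the median inclusion rate was 93.5%, and 36.6% of them had a rate of at least 99%. Intervals and limits here cover counting error only.

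In WSC CLIP, reads fell on all 9 genes but in very unequal number. *Slc1a2* had 27367 reads in the 4 libraries together and ranked 33 among the 4639 genes tested by CPM, a count scaled to the library's reads in genes. *Aldoc* had 7229, *Gfap* 2684, *Aqp4* 2492, *Gja1* 1403, *S100b* 1262 and *Glul* 1188. *Slc1a3* had 463 reads and *Gjb6* only 79, and these 2 did not pass the filter on low counts in the comparison with MN. For *Glul*, only 35.1% of the reads centred in the gene were counted, because the rest also lay in an overlapping annotated gene on the same strand, and none of its counted reads lay in its 3' UTR.

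The reads lay on the 3' untranslated regions (3' UTRs) of most of these genes. In WSC, the 3' UTR held 98.2% of the reads of *S100b*, 93.6% of *Aqp4*, 92.5% of *Gfap*, 90.9% of *Slc1a2*, 86.9% of *Aldoc* and 72.8% of *Gja1*. The intronic share was low in these 6 genes, from 0.111% in *Aldoc* to 5.04% in *Slc1a2*. *Slc1a3* and *Gjb6* differed, with 24.6% (Wilson 95% interval, 20.9% to 28.7%) and 44.3% (33.9% to 55.3%) of their reads in introns. In MN CLIP, the intronic share of *Slc1a2* was 10.8% (9.25% to 12.7%) of 1283 reads, but over the 8 MN libraries it ran from 1.89% to 13.8%, a range that encloses the 3.98% to 5.26% of the WSC libraries. For *Glul* it was 26.0% (17.3% to 37.1%) of 73 MN reads against 1.85% in WSC, and the 2 MN libraries with at least 20 reads had 19.0% and 47.6% against 0.943% to 2.63% in the WSC libraries. For *Aqp4* the 2 such MN libraries had 6.25% and 9.30% against 0.782% to 1.83%, so for both genes these libraries lay above WSC. Such libraries ran from 0% to 8.57% for *Gfap*, around the 1.09% to 2.46% of WSC, and *Gja1* and *S100b* had 0% in theirs. Over all genes, introns held 52.0% to 64.4% of the gene reads in MN libraries and 33.3% to 38.5% in WSC. A higher intronic share in MN was therefore not particular to these genes.

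**Figure D2:**
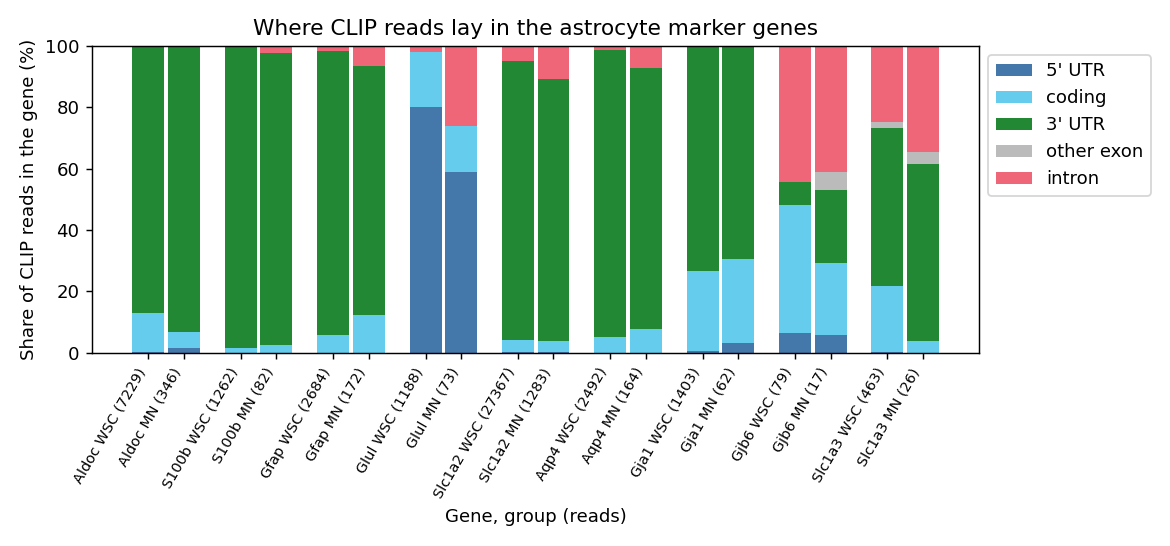
Share of CLIP reads (percent) by position in each gene, for WSC and MN reads pooled over libraries, with the number of reads in parentheses. The 3' UTR (green) holds most WSC reads in 7 of the genes, up to 98.2% in *S100b* in WSC, while introns (red) hold 44.3% of the WSC reads of *Gjb6*.

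At the position of highest WSC coverage in each gene, a window of 30 nt was read from the mm9 genome. These windows are shown because they are where the counted reads piled up on each gene. For *Glul* only the 35.1% of reads outside the overlapping gene were counted, so its highest position among all reads is not known. Bases run 5' to 3' on the strand of the gene, with every copy of those 4 tetranucleotides on that strand in capitals, overlaps included:

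Aldoc, 3' UTR (chr11:78139972-78140001, plus): gTCATcTCACatcTCACatgccttacattg
Slc1a2, 3' UTR, highest (chr2:102630830-102630859, plus): gatattctTCATatgatggaaataacctgt
Slc1a2, 3' UTR, second (chr2:102629281-102629310, plus): atctgtttTCACcgctagctatcagagcat
Gfap, 3' UTR (chr11:102749000-102749029, minus): tctCCATccCCACaatgactagctgttgct
S100b, 3' UTR (chr10:75723262-75723291, plus): agaggttgcTCATccttacacctgcttgcc
Gja1, 3' UTR (chr10:56110143-56110172, plus): tgtaatgtagacctagcCCATccaatcaat
Glul, 5' UTR (chr1:155747142-155747171, plus): ctctcctgacctgtTCACCCATCCATCATc

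Each of these windows held at least 1 of the 4 tetranucleotides, and that of *Glul* held 4. So did 90.7% of the windows built in the same way at the highest position of all 4639 genes tested, with 2 or more in 50.9% of them. A match describes the letters and does not show a binding site. Of the WSC reads of *Aldoc*, 4450, or 61.6%, covered its maximum, the largest share of counted reads among the 9 genes. In MN CLIP it was covered by 229 reads, 66.2% of the gene's MN reads (Wilson 95% interval, 61.0% to 71.0%), with reads from all 8 libraries.

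In other genes a smaller share of MN reads covered the WSC maximum. For *S100b* it was 27.4% in WSC and 8.54% (4.197% to 16.6%) of 82 reads in MN. Of those 82 reads, 42 came from line 17 replicate 4, and reads of 3 MN libraries covered the maximum. For *Gfap* the share was 27.8% and 15.7% (11.02% to 21.9%). For *Slc1a2* it was 10.9% and 6.86% (5.60% to 8.37%) at the highest maximum and 7.70% and 2.34% (1.64% to 3.32%) at the second. At the third maximum of *Slc1a2* (2.86% and 2.42%, 1.71% to 3.41%) the MN interval held the WSC share. So did that of *Aqp4* (10.4% and 7.93%, 4.69% to 13.1%). The maxima were chosen on the WSC reads, which raises the WSC share, and these values are therefore given as a description with no test. The intervals of shares here and above pool reads over libraries and cover counting error only.

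The next comparison asked whether these transcripts carried fewer CLIP reads in MNs than in WSC. Of the 9 markers, 7 passed the filter on low counts, 6 of them by their MN libraries alone. *Gja1* passed through WSC only, with 2 of 8 MN libraries at the level required of 4, so its lower call could hardly have gone the other way and is not counted. The other 6 all had lower CLIP reads per gene in the MN lines at an edgeR FDR of 0.01, against 28.9% of the 4639 genes tested lower and 28% higher, with a median log2 fold change of all genes of -0.01. This result rests on reads from the whole gene body, and the lower exonic share of MN reads given above moves with it. On exonic reads alone, 0 of the 7 were lower or higher by edgeR, against 24.1% of 2351 genes lower and 23.6% higher. The MN libraries numbered 1 and 2 in each line also had a shorter 5' linker barcode than all other libraries. On long-barcode libraries alone 7 of 9 markers were lower, *Gja1* among them, against 23.4% of genes.

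*Slc1a2* had 1866, 1762, 1894 and 2214 CPM in the WSC libraries and 670, 725 and 1568 CPM at the lowest, the median and the highest of the 8 MN libraries. The groups did not overlap, and 1 library, line 17 replicate 1, stood at the upper end alone with 82 reads. The fold change was -1.15 on the log2 scale (SE 0.14, edgeR FDR = 9.39e-08) and -1.24 without that library. *Aldoc* had 525, 418, 518 and 621 CPM in WSC and 115, 231 and 247 CPM in MN at the lowest, median and highest, again without overlap. Its log2 fold change was -1.19 (SE 0.13, edgeR FDR = 8.32e-09). How many of all genes tested lacked overlap between the groups is not given here.

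*Gja1* had 108, 90.7, 93.9 and 101.2 CPM in WSC and at most 59.5 CPM in MN, with 0 reads in 2 of the 8 MN libraries. The groups did not overlap, and the log2 fold change was -1.30 (SE 0.22). These values are a description only, because the gene passed the filter through WSC alone. *Aqp4* was 171 ± 21.6 CPM in WSC (SD, n = 4) and 81.5 ± 30.9 CPM in MN (n = 8), and *S100b* 87.2 ± 6.17 and 42.5 ± 14.99 CPM. Neither overlapped between the groups, and their log2 fold changes were -0.72 (SE 0.15, edgeR FDR = 0.00018) and -0.72 (SE 0.17, edgeR FDR = 0.00049).

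*Gfap* and *Glul* were less separate. *Gfap* had 162 to 223 CPM in WSC and 19.1 to 216 CPM in MN, and *Glul* 68.0 to 115 and 21.8 to 115 CPM, so both overlapped between the groups. Their log2 fold changes were -0.76 (SE 0.18, edgeR FDR = 0.00053) and -0.80 (SE 0.25, edgeR FDR = 0.0059). Without line 17 replicate 4, the deepest MN library, neither passed the threshold (edgeR FDR = 0.01002 for *Gfap* and 0.125 for *Glul*), and *Glul* did not pass without line 6 replicate 4 (0.0216) or WSC replicate 4 (0.0109). In line 6 alone *Glul* had an edgeR FDR of 0.0821, and in DESeq2 on all reads an FDR of 0.0313. *Slc1a3*, with 26 MN reads, and *Gjb6*, with 17, had at most 57.5 and 14.9 CPM in any MN library and were left out by the filter on low counts. Without that filter, *Slc1a3* had a log2 fold change of -1.15 (edgeR FDR = 0.00072) and *Gjb6* one of 0.75 (edgeR FDR = 0.18), where the median of all genes was -0.39. Between line 6 and line 17, no marker of the 7 (edgeR FDR = 0.9997 for each) and 0 of 4639 genes passed the threshold, with 217 of those at an unadjusted p under 0.05 and none of the 7 among them.

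**Figure D3:**
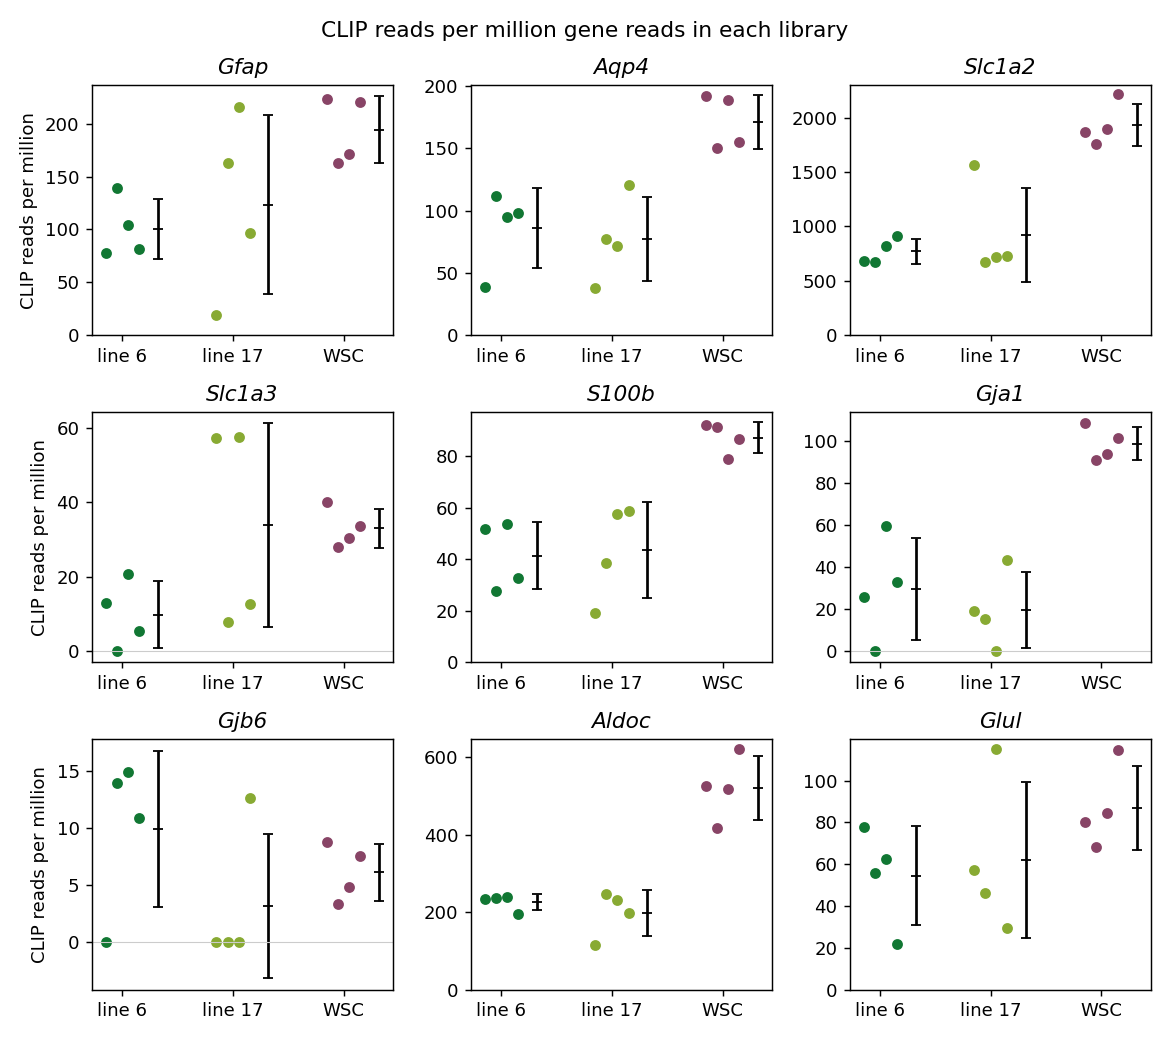
CLIP CPM in each library for the 9 genes, with points for single libraries of line 6, line 17 and WSC (n = 4 each) and bars for the mean ± SD. All WSC points of *Slc1a2*, *Aldoc*, *Gja1*, *Aqp4* and *S100b* lie above all MN points, while those of *Gfap*, *Glul*, *Slc1a3* and *Gjb6* overlap. In exonic reads, scaled to the exonic reads of each library, the groups overlapped for every gene. For *Slc1a2* this rests on line 17 replicate 1 alone (3191 CPM, against a lowest WSC value of 2619 CPM). For *Aldoc* it rests on line 17 replicate 2 alone (695 against 655 CPM).

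With counts restricted to exons, none of the 7 markers tested passed the edgeR FDR threshold of 0.01, which each had passed on all reads. In exonic reads, *Aldoc* had a log2 fold change of -0.41 (SE 0.14, edgeR FDR = 0.015), *Slc1a2* -0.44 (SE 0.15, 0.016) and *Gja1* -0.50 (SE 0.24, 0.069). *Gfap*, *Aqp4* and *S100b* were at -0.04, -0.02 and 0.03, each within its SE of 0. *S100b* changed sign. At an unadjusted p under 0.05, *Aldoc*, *Slc1a2* and *Gja1* were lower, against 32.2% of all genes tested. In exonic reads too, *Gja1* passed the filter through WSC only. DESeq2 on the same exonic counts called *Slc1a2* (FDR = 0.0038) and *Aldoc* (FDR = 0.0094) lower and none of the other 7, against 9.73% of 9610 genes.

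**Figure D4:**
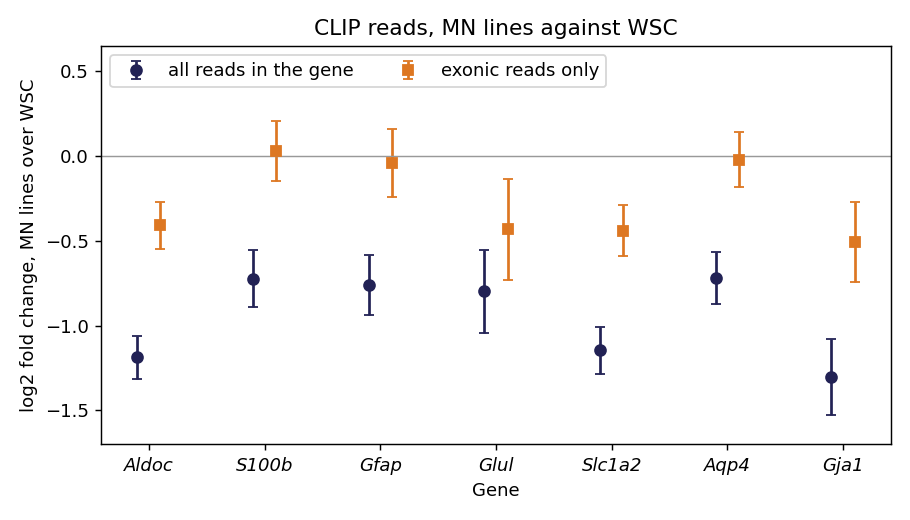
Log2 fold change of CLIP reads in the MN lines over WSC for the 7 markers tested, from all reads in the gene (circles) and exonic reads only (squares), with bars for ± SE. All 7 circles lie below 0, from -1.30 for *Gja1* to -0.72 for *Aqp4*, while the squares of *S100b*, *Gfap* and *Aqp4* lie within 1 SE of 0. *Gja1* passed the filter on low counts through WSC only.

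Other gene lists also depended on the choice of reads. Over all genes tested, 28.9% were lower and 28% higher on all reads, and 24.1% and 23.6% in exonic reads. Of the other astrocyte genes, 9 of 25 were tested on all reads, with 5 lower and 1 higher, and the median was -0.58. *Apoe* (-1.68, SE 0.18, edgeR FDR = 8.60e-09) and *Sparcl1* (-1.28, SE 0.10, edgeR FDR = 7.12e-11) were lower, and both also in exonic reads (-0.92 and -0.54, edgeR FDR = 0.00027 and 0.00033). *Kcnj10* was lower on all reads (-0.60, SE 0.16, edgeR FDR = 0.0016) but had 0.32 in exonic reads (edgeR FDR = 0.10). The gene that was higher, *Nfia*, a transcription factor of glia and neurons, was named after its value was seen (1.12, SE 0.11, edgeR FDR = 1.92e-09). In exonic reads, 2 of 8 were lower and 2 higher, with a median of 0.09.

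The lists of other cell types stand against the same shares of all genes, 28.9% lower and 28% higher on all reads and 24.1% and 23.6% in exonic reads. Of the oligodendrocyte genes, 3 of 6 were lower on all reads (median -0.55). They include *Mal*, at 19.6 ± 12.0 CPM in MN (SD, n = 8), where the filter required 38.5 CPM in 4 libraries. *Mal* thus passed the filter through WSC only, and its lower call could hardly have gone the other way. In exonic reads 0 of 5 were lower or higher by edgeR (median 0.04), with 0 at an unadjusted p under 0.05 on the lower side, against 32.2% of all genes. Of the genes of other neurons, 6 of 11 were lower in each count, with medians of -0.98 and -1.69, while 1 was higher on all reads and 3 in exonic reads. Among those lower on all reads, *Slc32a1* had 18.4 CPM in MN, from 14 reads, and also passed the filter through WSC only. Other genes of these lists were not checked for the group that carried them past the filter. The higher ones in exonic reads were *Snap25* (1.35), *Nefl* (0.93) and *Nefm* (0.54), which MNs also express. *Syt1* (-0.61) and *Rbfox3* (-0.41) of the same list lay below 0 and did not pass the threshold (edgeR FDR = 0.13 and 0.046). All 4 MN genes tested were higher in both, with medians of 2.36 and 3.05. Summed over the list on all reads, the 9 astrocyte markers had 2775 to 3554 CPM in the WSC libraries and 1203 to 1894 CPM in the MN libraries. *Slc1a2* alone averaged 1934 CPM in WSC. Sums of other astrocyte genes (2886 to 3456 against 1910 to 2678 CPM) and oligodendrocyte genes (1492 to 1755 against 488 to 1458 CPM) were also lower in MN without overlap. A lower sum was therefore not particular to the markers. Those of other neurons overlapped (11543 to 13133 against 9704 to 13208 CPM). No marker of microglia, endothelial cells or ependymal cells passed the filter. Their summed levels were 29.0 to 37.9, 28.0 to 36.2 and 33.03 to 44.9 CPM in WSC and 11.2 to 41.8, 14.4 to 181 and 19.6 to 41.8 CPM in MN.

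In the pathways of the markers, 9 of 12 genes of the glutamate-glutamine cycle, *Slc1a2* and *Glul* among them, were lower on all reads, against 28.9% of all genes. They include *Got2*, at 27.4 ± 8.58 CPM in MN (SD, n = 8), where the filter required 38.5 CPM in 4 libraries. *Got2* thus passed through WSC only, and its lower call could hardly have gone the other way. Cycle genes other than the markers were not checked further for this. In exonic reads 3 of 9 cycle genes were lower, against 24.1%. *Slc1a1* was lower on all reads (-0.96, SE 0.20, edgeR FDR = 0.00018). *Glud1* and *Got1*, which interconvert glutamate and 2-oxoglutarate, were lower on all reads (-0.81, SE 0.13, and -0.72, SE 0.11) and near 0 in exonic reads (-0.13 and 0.05). *Aldoa* was lower in both (-1.76, SE 0.13, and -1.001, SE 0.13, edgeR FDR = 1.94e-11 and 1.22e-06). *Panx2*, a neuronal pannexin, was too (-1.85, SE 0.15, and -1.07, SE 0.16).

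Relative to RNA, 8 of the 9 markers had fewer CLIP reads than the median gene. Exonic WSC CLIP CPM was divided by RNA CPM, over 9273 genes with at least 1 RPKM and 10 exonic CLIP reads, for which the median log2 ratio was -1.57. *Slc1a2* stood highest of the 9, at 1.78 (SD 0.15 over 4 WSC libraries), above 97.7% of those genes. Its CLIP reads were counted over the longer GENCODE exons, which hold all 3 of its highest maxima, and its RNA reads over the shorter deposited model, and the part of this difference in the ratio was not tested.

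The other 8 lay below the median of all genes. *Aldoc* was closest, at -1.73 (SD 0.23), followed by *Gja1* at -2.24, *Aqp4* at -2.31, *Slc1a3* at -2.43 and *Gfap* at -2.80. *S100b* was at -3.38 and *Gjb6* at -4.64 (SD 0.87). *Glul* was at -3.96, with the reads shared with the overlapping gene left out. The median of the 9 was -2.43, against -3.88 for the 23 other astrocyte genes compared, -4.89 for 10 oligodendrocyte genes and 0.22 for 10 genes of other neurons. These are levels in separate animals of different strain, given with no test.

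**Figure D5:**
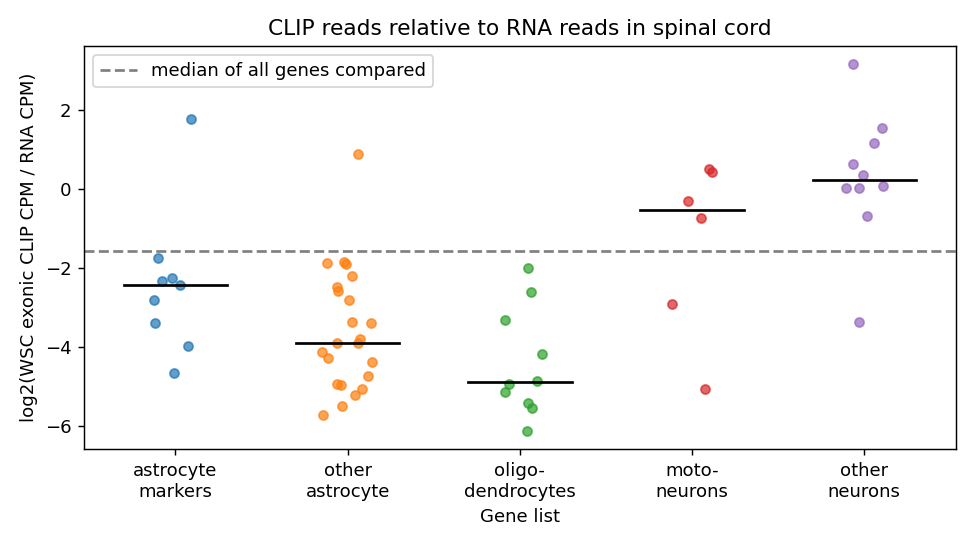
Log2 ratio of exonic WSC CLIP CPM to RNA CPM (points, 1 a gene; bars, list medians) for 5 gene lists, with the median of all 9273 genes as the dashed line at -1.57. The astrocyte markers lie below the line except *Slc1a2* at 1.78, and other neuronal genes have a median of 0.22.

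Over the 12 CLIP libraries, genes outside the 9 whose log2(CPM + 1) followed the mean of the 7 tested markers most closely included *Vps26a* (Pearson r = 0.975), *Cdk14* (0.969), *6330439K17Rik* (0.966) and *Cit* (0.958). The libraries share their depth and group, and these values describe 12 libraries with no test.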

How the data were processed

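The authors removed the 3' linker from CLIP reads, mapped them to mm9 with Novoalign, removed reads with signs of mispriming and deposited BED files with 1 line per unique read, whose score column was not used. RNA-seq reads were mapped by the authors with OLego and counted with Quantas. The deposited tables hold raw read counts per gene and per cassette exon, and RPKM computed by the authors from those counts. The labels of 1 library, line 6 replicate 2, name both mm9 and mm10, and its share of reads on the sense strand of genes lay within the range of the other MN libraries.

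CLIP reads were counted per gene of GENCODE vM1 (NCBIM37, the same build as mm9) by the read centre on the gene's strand, leaving out reads inside more than 1 gene. Levels are CPM, counts scaled to the library total in genes. Counts were tested with edgeR 4.0.16 (R 4.3.3; quasi-likelihood test, filterByExpr, TMM, Benjamini-Hochberg over all genes tested, FDR 0.01), MN lines against WSC, with DESeq2 1.42.0 as an alternative. The test was checked on simulated data. RPKM ratios used log2(RPKM + 0.1). Exons needed 10 junction reads in each library and were tested with Fisher's exact test (SciPy 1.17.1) at FDR 0.1. Genes named beyond the 9 markers were up to 4 of the highest mean RPKM in each pathway list, paralogs of a marker, defining cell type markers and those among the 5 of most similar CLIP profile. Some genes and sequences that these rules cover are not reported here. The markers and lists were chosen with earlier results of these data known. MN libraries held 65961 to 871804 reads and WSC libraries 2213104 to 6095995, so single MN libraries hold few reads on most markers. The alternatives were other normalizations, filters, exonic or intronic reads, single lines, a replicate block and leaving out each library. The authors' own inclusion rates were not used.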

Additional observations from a re-analysis of the deposited data

Results flagged for a closer look

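Among 27 sets of 4 CLIP libraries, 1 for each of the 9 genes in line 6, line 17 and WSC, 3 held a library far from the other 3 by Dixon's criterion, which chance alone passes in about 1 of 20 sets. *Slc1a2* had 1568 CPM in line 17 replicate 1, from 82 reads, where the other 3 libraries of the line had 673 to 730 CPM. *Gjb6* had 12.6 CPM in line 17 replicate 4, from 9 reads, and 0 in the other 3, where a count of 0 allows 23.2 to 57.4 CPM (3 reads), so these libraries cannot be told apart from it at their depth. *Aldoc* had 196 CPM in line 6 replicate 4, from 36 reads, below the 233 to 238 CPM of the other 3.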

How the results depend on the processing

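Of 155 recomputed log2 fold changes of the markers in CLIP, 134 kept their direction and their side of the threshold, 20 kept their direction only and 1 reversed, that of *S100b* in exonic reads (0.0296). Genes called lower and higher numbered 1341 and 1298, and without 1 library each they ranged from 931 to 1455 and from 982 to 1419. Exonic reads gave 567 and 555, intronic reads 400 and 358, where only *Slc1a2* of the markers was tested, and no filter gave 2790 lower, with 29.8% of the called genes higher against 49.2%. The median of all genes was -0.39 without the filter, over 19578 genes, and 0.62 in DESeq2, over 12365, where 8 and 7 of 9 markers were lower against 14.3% and 16.1% of genes. Among other named genes, *Got1* (0.0522) and *Kcnj10* (0.32) reversed in exonic reads, *Slc4a4* without the filter (-0.11, from 0.17) and *Hepacam* in DESeq2 (0.0578, from -0.20). Line 6 alone gave 6 of 8 markers lower against 16.1% of genes, and line 17 alone 4 of 8 against 15.4%, with *Gfap*, *Aqp4* and *S100b* past the edgeR FDR threshold no longer (0.0126, 0.0102 and 0.0348). Without line 17 replicate 4 it was 5 of 7 against 24.9%. Keeping the shared reads of *Glul*, added after seeing the data, left 7 of 7 lower against 29.0% of genes, with *Glul* at -0.57. The replicate numbers were not taken as pairs, because same-numbered libraries of line 6 and line 17 correlated at 0.15, 0.04, 0.10 and 0.19 and at most at 0.06 with WSC. As a hint from the data, 7 of 8 MN libraries correlated best with their own number, and the number goes with the length of the 5' linker barcode in the labels, 5 letters for replicate 1, 7 for replicate 2 and 24 for the others. A replicate block gave 1128 genes lower and 1054 higher and left 7 of 7 markers lower against 24.3% of genes. Every count of lower markers in this section includes *Gja1*, which passed the filter of the main comparison through WSC only. The share of genes differing by 25% or more between the RNA-seq libraries was 10.3% with log2(RPKM + 1), 20.8% with no minimum and 3.49% at 1.5-fold. The cause of these changes was not tested. *Slc1a3* and *Gjb6* had 26 and 17 MN reads, which leaves their differences poorly resolved.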
